A study of Pimephales promelas with 270 samples.

Results

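Fathead minnow larvae (Pimephales promelas) aged 6 days post fertilization that had spent 24 h in 3.3 mg/l propranolol, the high dose of the study, were compared with control larvae of the same age and duration. The samples were chosen by their labels of age, duration and dose, and 19 of the 266 libraries in the deposited count table met them. The 9 high-dose libraries carry the numbers 31 to 44 and the 10 control libraries the numbers 1 to 14, with gaps in both runs. The labels list 1 more high-dose sample, which is not analysed here. The 9 libraries of the low dose, 0.66 mg/l, from the same age and duration served only to estimate the spread between libraries.

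The series crosses 3 ages with 3 exposure times and 3 doses, and mRNA of whole larvae was sequenced. Larvae of other sets were used here to describe the same transcripts in separate libraries with controls of their own. These were 6-day larvae after 6 h (10 high-dose and 10 control libraries), 6-day larvae after 48 h (10 high-dose and 8 control libraries) and 5-day larvae after 24 h (10 high-dose and 10 control libraries), with the high dose at 3.3 mg/l in each. The treatment text shared by all samples names ethinyl estradiol, while the title and the design text of the series name propranolol and each sample is labelled high dose, low dose or control. The title and design text were followed. No strain, sex or carrier solvent is given for any group, nor is it stated at which end of the exposure age was counted. Vessels are not identified in the labels, and each p-value therefore measures the spread between the samples as labelled, part of which may be technical.

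Propranolol is a drug that blocks beta-adrenergic receptors, the receptors through which adrenaline and noradrenaline speed the heart, mobilise glucose and relax smooth muscle. Fish carry beta-adrenergic receptors too, in the heart among other tissues, and the drug reaches rivers through treated waste water. The fathead minnow is a small freshwater fish that is widely used in toxicity tests, often as larvae.

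The transcripts carry bare identifiers, of which 0 were found in the RefSeq gene table, and no transcript can be given a gene name or a function. The labelled stage could not be checked against marker genes for the same reason. In whole larvae, fewer cells that hold a transcript and less of it per cell cannot be told apart. How reads shared by near-identical transcripts, or reads of opposite strands, were assigned is not given in the sources used here, which limits the count of any single transcript.

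High-dose libraries held 6192816 to 16642193 counts (6.19 to 16.6 M, median 12.93 M) and control libraries 5374216 to 18637267 (5.37 to 18.6 M, median 13.12 M). The high-dose libraries had 33271 to 34526 transcripts with counts above 0, and the controls 33345 to 34584, of 34856 in the table. The share of counts in the 10 most abundant transcripts was 9.24% to 15.8% in high-dose libraries and 8.81% to 12.8% in controls. No difference between the groups in these measures of depth and composition was detected (two-sided exact permutation tests of the means, p = 0.904, 0.992 and 0.812, adjusted p = 0.992 each). No pair of libraries within a group agreed within sampling noise (lowest chi-square per degree of freedom, 7.21), so none was taken for a library deposited again, which does not show that they came from separate cultures.

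After 24 h most of the transcripts that passed the test were moderate rises, found mainly at middle and high levels. Of 29703 transcripts tested, 205 (0.690%) differed between high-dose and control larvae at a false discovery rate of 0.05 (edgeR quasi-likelihood test, Benjamini-Hochberg adjustment). Of these, 174 (0.586%) rose and 31 (0.104%) fell. At an unadjusted p under 0.05 the same test gave 2971 transcripts. The rises had a median log2 fold change of 0.55, or 1.46-fold, with an interquartile range of 0.44 to 0.68 and extremes of 0.27 and 2.39. Among them, 71 exceeded 1.5-fold and 18 exceeded 2-fold. The falls had a median of -0.64, with an interquartile range of -0.77 to -0.47 and extremes of -2.37 and -0.29, and 18 of the 31 exceeded 1.5-fold and 5 exceeded 2-fold. For all transcripts tested the median was -0.0022, and 860 had an estimate beyond 1.5-fold. The count fell to 76 (68 rises and 8 falls) without the 5 libraries under 9 M counts, which were high-dose libraries 37 and 40, controls 1 and 2 and 1 low-dose library. It was 102 (94 rises and 8 falls) when adjacent library numbers were summed in case they share a vessel, and 362 (286 rises and 76 falls) with DESeq2. Leaving out 1 library took the falls to 17 without control 13, 18 without control 5, 19 without high-dose library 37, and 20 without control 4, high-dose library 32 or high-dose library 34.

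Rises were found mainly at middle and high levels. Their median of mean log2 CPM (CPM, the counts of a library after TMM scaling to the same total for all) was 4.28, against 3.25 for the falls and 2.94 for all transcripts tested. Below a mean log2 CPM of 2, 14 of 10511 transcripts rose (0.133%). Between 2 and 4 it was 61 of 9580 (0.637%), between 4 and 6 it was 70 of 7265 (0.964%), and at 6 or more it was 29 of 2347 (1.24%). The share of transcripts that passed as rises was thus higher in each higher class of level. From the lowest class to the highest, these rises had median log2 fold changes of 0.99, 0.59, 0.46 and 0.55. Those that passed in the lowest class were therefore larger, and how far detection depends on level was not tested. Falls were spread more evenly, with 10, 7, 11 and 3 transcripts in the same 4 classes (0.0951%, 0.0731%, 0.151% and 0.128%). A control mean under 1 CPM was found for 2 of the 174 rises and 0 of the 31 falls, against 2772 of all 29703 transcripts tested.

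**Figure D1:**
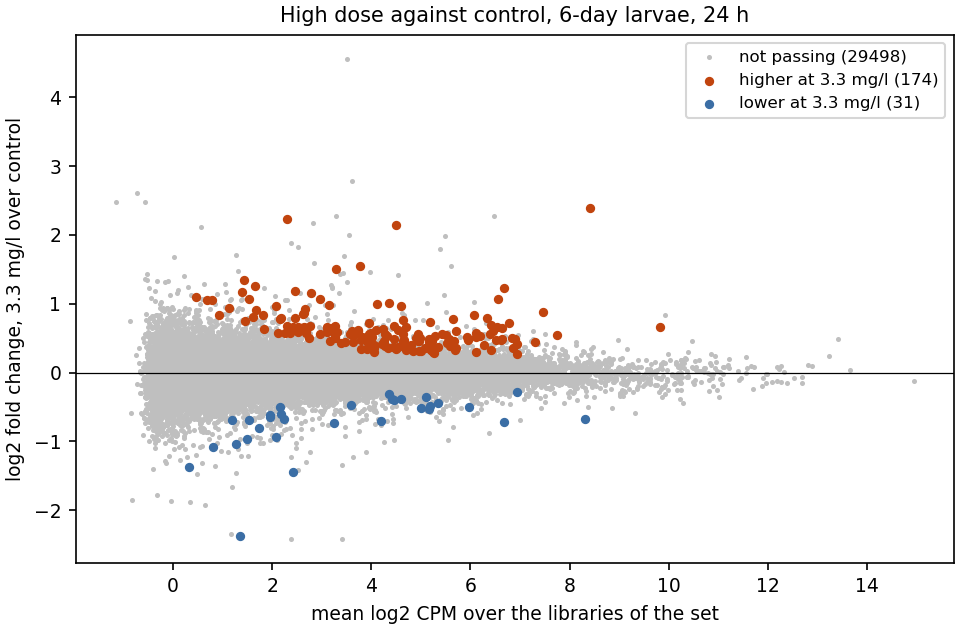
Log2 fold change of high-dose over control larvae (6 days, 24 h) against the mean log2 CPM over the libraries of the set, 1 point per transcript tested. The 174 transcripts that passed the test and were higher at 3.3 mg/l extend over the middle and high levels and reach 2.39, and the 31 that passed and were lower reach -2.37.

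The rise was present in nearly every high-dose library. In 149 of the 174 rises, all 9 high-dose libraries lay above the median of the controls, as they did in 825 of all 29703 transcripts tested. In 30 of the 31 falls, all 9 lay below that median, as they did in 642 of all transcripts. Groups that did not overlap at all were fewer. Each high-dose library exceeded each control library in 30 of the 174 rises, and such a separation was found in 31 of all transcripts tested (0.104%). The reverse separation was found in 0 of the 31 falls and in 1 of all transcripts (0.00337%). Since these are the values that the test was run on, the counts describe the calls and are no further support for them.

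Counted by library, between 116 and 150 of the 174 rises lay above the highest control, with the lowest number in high-dose library 40 and the highest in library 37. Between 13 and 25 of the 31 falls lay below the lowest control, with the lowest number in library 38 and the highest again in library 37. The matching counts over all transcripts tested were not taken. The transcripts were called on these same values, so the counts only describe the calls. Library 37 was also the shallowest of the high-dose group, at 6.19 M counts, and library 40 the next, at 8.45 M, so the shallow libraries stood at both ends. As sums of TMM-scaled CPM, the 174 rises made up 0.755% to 1.01% of the scaled total in high-dose libraries. In controls they made up 0.495% to 0.566%. The scaled total is the same for all libraries, so these are not shares of a library's own counts. On the same scale the 31 falls made up 0.0678% to 0.0873% in high-dose libraries and 0.103% to 0.131% in controls. Neither share overlapped between the groups, which the choice of these transcripts favours.

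The median spread between libraries was about the same in both groups, though fewer of the falls than of all transcripts had the larger SD at the high dose. For the rises, the median SD of log2 CPM was 0.24 among high-dose libraries and 0.22 among controls, and 102 of the 174 had the larger SD at the high dose (58.6%). For the falls it was 0.28 among high-dose libraries and 0.27 among controls, and 9 of 31 had the larger SD at the high dose (29.0%). Over the 23482 transcripts tested with a mean log2 CPM of at least 1, the medians were 0.27 among high-dose libraries and 0.26 among controls, and 50.9% had the larger SD at the high dose.

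The largest rise was that of FMt045902. It stood at 440 to 814 CPM in high-dose larvae (median 638), against 93.5 to 159 CPM in controls (median 119). The lowest high-dose library was thus far above the highest control. The log2 fold change was 2.39 ± 0.24 (SE, adjusted p by edgeR = 1.25e-06, 9 high-dose and 10 control libraries), a 5.24-fold rise. FMt016413 had the second-largest rise and rests on 47 to 148 reads per high-dose library and 11 to 33 per control. It had 5.01 to 13.6 CPM in high-dose larvae (median 7.96), against 0.776 to 3.78 CPM in controls (median 1.51). These groups did not overlap either. Its log2 fold change was 2.23 ± 0.28 (SE, adjusted p by edgeR = 3.14e-05), or 4.69-fold.

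The next rises were singled out after their values were seen. The third-largest had 27.5 to 60.3 CPM in high-dose larvae (median 35.2), against 5.24 to 13.2 CPM in controls (median 9.13), with a log2 fold change of 2.15 ± 0.19 (SE, adjusted p by edgeR = 9.02e-08), the lowest adjusted p of the whole comparison. A gap followed to the next pair, whose log2 fold changes were 1.54 ± 0.16 and 1.502 ± 0.19 (SE, adjusted p by edgeR = 7.83e-07 and 1.58e-05) and whose identifiers are consecutive numbers. In the whole list, 14 of the 174 rises (8.05%) carried a number next to that of another transcript that rose, against 250 of all transcripts tested (0.842%). Whether transcripts with consecutive numbers belong to the same gene or share reads is not given, so the 174 rises may stand for fewer genes.

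The largest fall was that of FMt010530. It had 0.514 to 1.52 CPM in high-dose larvae (median 0.958), against 1.29 to 9.83 CPM in controls (median 4.37). The ranges met only at their edges, between the highest high-dose libraries and the lowest controls. The log2 fold change was -2.37 ± 0.35 (SE, adjusted p by edgeR = 0.000246), a level 5.17-fold lower at the high dose. It rests on 8 to 17 reads per high-dose library and 8 to 129 per control. Controls 1 and 2, the 2 under 9 M counts, had the lowest control levels, on 9 and 8 reads. Without the libraries under 9 M counts the log2 fold change was -2.69 (adjusted p by edgeR = 0.000157). FMt042284 had the second-largest fall, with 1.93 to 6.90 CPM in high-dose larvae (median 2.84), against 2.87 to 20.9 CPM in controls (median 7.04). These groups overlapped more. Its log2 fold change was -1.45 ± 0.31 (SE, adjusted p by edgeR = 0.0211). It missed the threshold when the low-dose libraries were left out of the fit (-1.45, adjusted p by edgeR = 0.0603) and when adjacent numbers were summed (-1.47, adjusted p by edgeR = 0.0654).

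**Figure D2:**
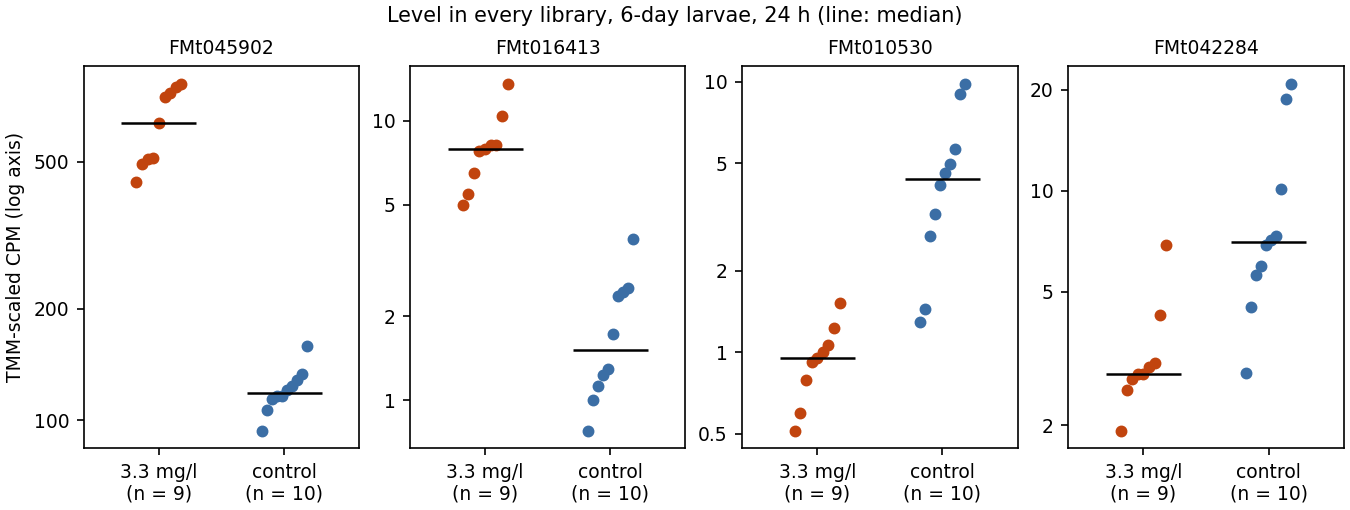
TMM-scaled CPM (log axis) of the 2 largest rises and the 2 largest falls in each library of 6-day larvae after 24 h, with 9 high-dose libraries on the left of each panel, 10 controls on the right and a line at each median. FMt045902 and FMt016413 show no overlap. FMt010530 overlaps at the lower end of the controls, and FMt042284 up to near their median.

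Most of the rises and few of the falls passed again in larvae of the same age after 48 h. In these separate libraries, 1067 of 30247 transcripts (3.53%) passed the test, 750 as rises (2.48%) and 317 as falls (1.05%), and 4775 (15.8%) had an unadjusted p under 0.05. Of the 174 rises at 24 h, 124 were rises at 48 h too, which is 71.3% of the 24 h rises and 16.5% of the 48 h rises. Of the 31 falls at 24 h, 5 were falls at 48 h too, which is 16.1% of the 24 h falls and 1.58% of the 48 h falls. None of the 205 was called in opposite directions. With a false discovery rate of 0.01 at both times the shared rises numbered 56 and the shared falls 1. The sign was kept by 171 of the 174 rises (98.3%) and by 23 of the 31 falls (74.2%), against 57.2% of all transcripts tested in both sets.

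The median change of the rises was somewhat larger at 48 h and that of the falls smaller. For the 174 rises the median was 0.55 at 24 h and 0.61 at 48 h on the log2 scale. The 124 that rose at both times had medians of 0.54 at 24 h and 0.75 at 48 h. The other 50 had 0.55 at 24 h and 0.28 at 48 h, where 47 were above 0 and 28 of the 50 had an unadjusted p under 0.05. Most of the 50 thus kept an estimate above 0. For the 31 falls the median was -0.64 at 24 h and -0.22 at 48 h. The 5 that fell at both times had -0.53 at 24 h and -1.06 at 48 h, while the other 26 had -0.66 at 24 h and -0.15 at 48 h, where 8 were above 0. Transcripts were chosen at 24 h, and estimates chosen for passing a threshold tend to be too large there, so a lower value in the other libraries is no measure of a decline.

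The transcripts with the largest changes differed in the same way. The 18 rises over 2-fold had a median of 1.18 at 24 h and 1.41 at 48 h (log2 fold change), where 15 passed the test and all lay between 0.40 and 2.84. The 5 falls over 2-fold had a median of -1.38 at 24 h, and at 48 h all 5 were above 0, between 0.14 and 0.93, with none passing the test. Across the 10 controls at 24 h these 5 varied together, with correlations of 0.64 to 0.94 over 10 pairs (median 0.78). Across the 9 high-dose libraries the correlations were -0.61 to 0.54 (median 0.38). Over the 465 pairs of all 31 falls the median was 0.03 in the controls. The 5 may therefore not be separate changes. FMt045902 had 532 to 1109 CPM in 48 h high-dose larvae (median 851), against 107 to 169 CPM in 48 h controls (median 126), a log2 fold change of 2.65 ± 0.18 (SE, adjusted p by edgeR = 5.49e-11). FMt016413 had 3.49 to 10.0 CPM in 48 h high-dose larvae (median 6.50), against 0.540 to 1.75 CPM in controls (median 1.28), a log2 fold change of 2.42 ± 0.28 (SE, adjusted p by edgeR = 9.05e-07). For both, the groups did not overlap at 48 h either.

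The named falls did not pass at 48 h and had estimates of the other sign. FMt010530 had 1.28 to 11.1 CPM in 48 h high-dose larvae (median 3.43), against 1.02 to 3.76 CPM in controls (median 2.42), a log2 fold change of 0.93 ± 0.43 (SE, adjusted p by edgeR = 0.289). FMt042284 had 2.11 to 21.4 CPM in 48 h high-dose larvae (median 8.03), against 2.79 to 8.84 CPM in controls (median 4.55), a log2 fold change of 0.81 ± 0.41 (SE, adjusted p by edgeR = 0.338). At 48 h the wider range was therefore in the high-dose group, and at 24 h in the controls.

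**Figure D3:**
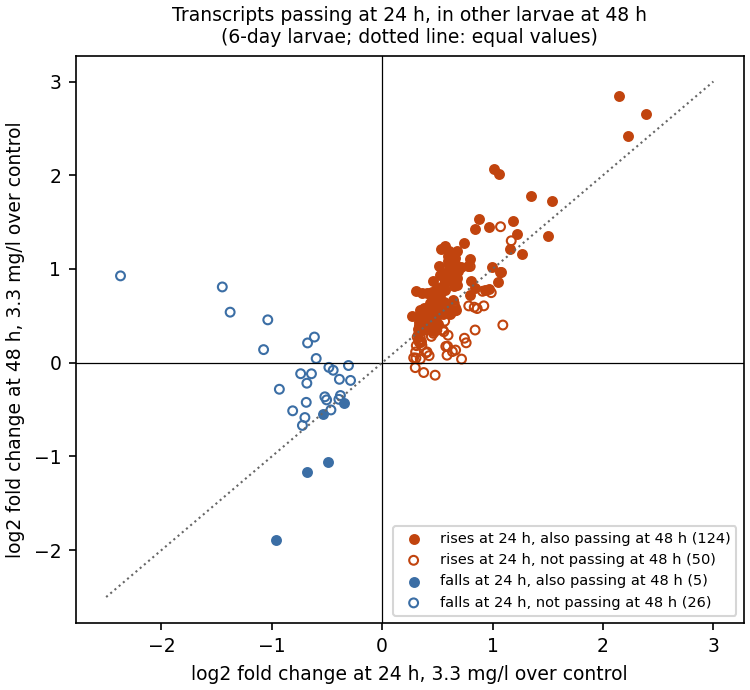
Log2 fold change of high-dose over control larvae at 48 h against that at 24 h, both in 6-day larvae, for the 205 transcripts that passed at 24 h, with filled points for those that also passed in the same direction at 48 h. Of the rises, 171 of 174 lie above 0 at 48 h, while the falls scatter around a median of -0.22 and the 5 largest falls lie above 0.

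Read in the other direction, most transcripts chosen at 48 h had an estimate of the same sign at 24 h, against 57.2% of all transcripts. Of the 750 rises at 48 h, 744 were tested at 24 h, and 681 of these (91.5%) were above 0, and their median was 0.26 at 24 h, where the 750 had 0.60 at 48 h (log2 fold change). Without the 124 that had passed at 24 h, the median of the other 620 was 0.22 and 89.8% were above 0. The 113 rises over 2-fold at 48 h had a median of 0.53 at 24 h, with 103 of 108 above 0. Of the 317 falls at 48 h, 314 were tested at 24 h, and 241 of these (76.8%) were below 0, and their median was -0.12 at 24 h, where the 317 had -0.60 at 48 h. Having been chosen at 48 h, the lists tend to have estimates that are too large there, so their lower 24 h medians are no measure of growth with time.

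The lists made at 48 h were also read in single libraries at 24 h. A score was taken for each library as the mean log2 CPM of the listed transcripts minus the mean of the 24 h controls. Over the 744 rises the score was 0.16 to 0.37 in high-dose libraries (median 0.30) and -0.08 to 0.08 in controls. This list was made from the 48 h libraries alone, and 124 of its transcripts had also passed at 24 h. Leaving these out is a choice made on the 24 h values, which lowers the high-dose score. Over the 620 that had not passed at 24 h it was 0.09 to 0.29 in high-dose libraries (median 0.22) and -0.09 to 0.10 in controls (median -0.0083), and the groups overlapped, with the lowest high-dose library just under the highest control. Over the 314 falls it was -0.28 to -0.04 in high-dose libraries (median -0.17) and -0.14 to 0.12 in controls, with overlap. The highest rise score and the lowest fall score were both in high-dose library 37, at 0.37 and -0.28, and the lowest rise score and the highest fall score both in library 40, at 0.16 and -0.04.

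The controls also varied along these lists. Across the 10 controls, rise and fall scores had a Pearson's r of -0.90 and a Spearman's coefficient of -0.92 (permutation p adjusted over 4 relations = 0.00232 and 0.0028). Across the 9 high-dose libraries these were -0.73 and -0.70 (adjusted permutation p = 0.057 and 0.0865). Without the 2 libraries farthest from the median, r was -0.94 in controls and -0.34 in high-dose libraries. Control 13 had the lowest rise score, at -0.08, and the highest fall score, at 0.12, while control 7 had the lowest fall score, at -0.14, with a rise score of 0.06. The controls' own range of fall scores was thus wider than the difference between the medians of the groups, while for rise scores it was narrower. Fall scores averaged -0.15 in high-dose libraries, with an SD of 0.08 in each group. Rise scores averaged 0.29 in high-dose libraries, with an SD of 0.07 there and 0.06 in controls.

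After 6 h most of the 24 h transcripts were close to the control level, and none passed the test. In 6-day larvae at 6 h, 0 of 29609 transcripts passed the edgeR test (0%), with 1514 at an unadjusted p under 0.05 (5.11%). The 174 rises had a median log2 fold change of 0.08 at 6 h and 132 (75.9%) were above 0. The 31 falls had a median of -0.04 and 21 (67.7%) were below 0, against 56.0% of all transcripts with the same sign at both times. Both lists were chosen at 24 h and tend to have estimates that are too large there. Their smaller 6 h medians are therefore no measure of growth with time. An unadjusted p under 0.05 in edgeR's test at 6 h, with the same sign, was found for 19 rises (10.9%) and 3 falls (9.68%), against 3.51% of all transcripts. The highest 6 h estimate among the 174 rises was a log2 fold change of 1.00, in a transcript with 0.99 at 24 h. It was picked as the highest and did not pass at 6 h. FMt045902 had 56.5 to 115 CPM in 6 h high-dose larvae (median 110), against 75.3 to 110 CPM in 6 h controls (median 87.3), a log2 fold change of 0.24 ± 0.11 (SE, adjusted p by edgeR = 0.921). The unadjusted p by edgeR over all libraries was 0.0317. The overlap came from 1 library of each group. The other 9 high-dose libraries had 102 to 115 CPM and the other 9 controls 75.3 to 96.4 CPM. These libraries were set apart after their values were seen, so the gap is no support for a change at 6 h. FMt016413 was at 0.28 ± 0.32, FMt010530 at 0.22 ± 0.48 and FMt042284 at 0.45 ± 0.37 on the log2 scale (SE, adjusted p by edgeR = 0.962, 0.984 and 0.941).

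The test of the difference between durations used the libraries of both sets in a single fit and shares the 24 h libraries with the 24 h comparison. Against 6 h, the effect of the high dose at 24 h differed for 16 of 31234 transcripts (0.0512%, edgeR, false discovery rate 0.05), with a more positive effect at 24 h for 15. FMt045902 had a difference in log2 fold change of 2.16 ± 0.25 (SE, adjusted p by edgeR = 1.73e-07), and the third-largest rise one of 2.06 ± 0.24 (adjusted p by edgeR = 1.17e-07). FMt016413, at 1.95 ± 0.43, did not pass (adjusted p by edgeR = 0.0656), and neither did FMt010530, at -2.58 ± 0.62 (adjusted p by edgeR = 0.125), nor FMt042284, at -1.90 ± 0.50 (adjusted p by edgeR = 0.207). The 16 became 9 without libraries under 9 M counts.

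Between 24 h and 48 h the effect differed for 4 of 31472 transcripts (0.0127%), with a more positive effect at 24 h for 1 and a more negative one for 3. FMt010530 was among the 3, with a difference of -3.30 ± 0.58 (SE, adjusted p by edgeR = 0.0181). FMt042284 did not pass, at -2.26 ± 0.53 (adjusted p by edgeR = 0.0983). For FMt045902 the difference was -0.26 ± 0.29 (adjusted p by edgeR = 0.859) and for FMt016413 -0.20 ± 0.40 (adjusted p by edgeR = 0.935). An unadjusted p under 0.05 in this edgeR test was found for 2777 transcripts (8.82%), with 43 of the 174 rises (24.7%) and 13 of the 31 falls (41.9%). The rises and falls had been chosen on the same 24 h libraries. For nearly all transcripts, then, the higher count of calls at 48 h was not accompanied by a difference that passed its own test. This does not show that the effects at 24 h and 48 h were equal. Duration cannot be told apart from any other difference between the sets.

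In 5-day larvae after 24 h few transcripts passed, and most of the 6-day rises had estimates above 0. The edgeR test called 24 of 30183 transcripts (0.0795%), all of them as rises, with 1829 (6.06%) at an unadjusted p under 0.05. Of the 24, 5 were among the 174 rises at 6 days (2.87% of the 174 and 20.8% of the 24). All 5 had also risen at 48 h in 6-day larvae. Of the 173 rises at 6 days that were tested at 5 days, 157 (90.8%) were above 0 there, with a median log2 fold change of 0.15. Of the 31 falls, 19 (61.3%) were below 0, with a median of -0.06, against 54.7% of all transcripts with the same sign at both ages. The 24 rises at 5 days had a median of 0.24 in 6-day larvae and 1.00 in 5-day larvae, and 19 were above 0 at 6 days. Each list tends to have estimates that are too large at the age where it was chosen. The smaller medians at the other age are therefore no measure of a difference with age.

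FMt045902 had 113 to 573 CPM in 5-day high-dose larvae (median 212), against 60.1 to 100.4 CPM in 5-day controls (median 75.05), a log2 fold change of 1.77 ± 0.21 (SE, adjusted p by edgeR = 8.23e-05). The high-dose range was wide, with a coefficient of variation of 56.0% at 5 days and 23.4% at 6 days. FMt016413 rose by 1.599 ± 0.23 (SE, adjusted p by edgeR = 0.000288). FMt010530, at 0.35 ± 0.45, and FMt042284, at -0.10 ± 0.42, did not pass at 5 days (adjusted p by edgeR = 0.933 and 0.983). Tested directly, the effect of the high dose at 24 h differed between 6-day and 5-day larvae for 2 of 31640 transcripts (0.00632%), 1 with the more positive effect at each age, and for 4 with limma-voom. The third-largest rise was the one higher at 6 days, with a log2 fold change of 2.15 ± 0.19 at 6 days and 0.68 ± 0.14 at 5 days and a difference of 1.46 ± 0.23 (SE, adjusted p by edgeR = 0.00109). FMt045902 had a difference of 0.62 ± 0.31 (adjusted p by edgeR = 0.831) and FMt016413 one of 0.62 ± 0.37 (adjusted p by edgeR = 0.880). For FMt010530 it was -2.72 ± 0.59 (adjusted p by edgeR = 0.0824) and for FMt042284 -1.36 ± 0.54 (adjusted p by edgeR = 0.719). Age cannot be told apart from other differences between the sets.

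**Figure D4:**
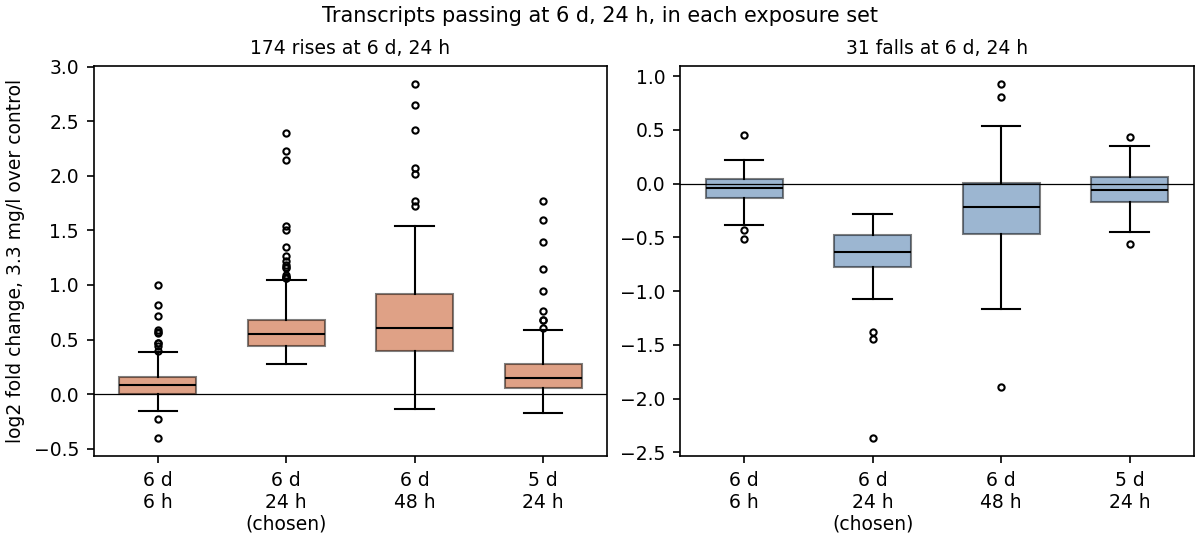
Log2 fold change of high-dose over control larvae in each exposure set for the 174 rises (left) and 31 falls (right) chosen in 6-day larvae at 24 h, with boxes from the lower to the upper quartile, a line at the median and whiskers to the farthest value within 1.5 box lengths. The medians of the rises are 0.08, 0.55 and 0.61 after 6, 24 and 48 h at 6 days and 0.15 after 24 h at 5 days, and those of the falls are -0.04, -0.64 and -0.22 at 6 days and -0.06 at 5 days.

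Control larvae also differed between the 6 h and 48 h sets. Between 48 h and 6 h in control 6-day larvae, in libraries outside the 24 h set, 3237 of 29256 transcripts were higher at 48 h (11.1%) and 3158 lower (10.8%, edgeR, false discovery rate 0.05). Of the 174 rises at 24 h, 40 were higher at 48 h in these controls (23.0%) and 22 lower (12.6%), with a median log2 fold change of 0.05. Of the 31 falls, 5 were higher (16.1%) and 1 lower (3.23%), and 24 were above 0, with a median of 0.33. Over all transcripts 14422 of 29256 were above 0. Most of the falls thus had estimates above 0 in the later controls while few passed. The part of this difference in the falls was not tested. Time cannot be told apart from any other difference between these sets of controls.

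The level of the named falls in controls was highest in the 24 h set. FMt010530 had a median of 1.32 CPM in high-dose larvae at 6 h, 0.958 CPM at 24 h and 3.43 CPM at 48 h, and in controls 0.936, 4.37 and 2.42 CPM at the same times. FMt042284 had a median of 3.68 CPM in high-dose larvae at 6 h, 2.84 CPM at 24 h and 8.03 CPM at 48 h, and in controls 2.33, 7.04 and 4.55 CPM. In both transcripts the 24 h high-dose larvae stood near the 6 h larvae of either group. Levels in different sets were scaled apart, and no test was made between them.

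The named falls also varied together in some control groups and some high-dose groups. Log2 levels of FMt010530 and FMt042284 (with 0.1 CPM added) were compared across the libraries of each group. Across the 9 high-dose libraries at 24 h Pearson's r was 0.08 and Spearman's coefficient -0.28 (exact permutation p = 0.878 and 0.463, the same after adjustment over 8 groups), and r was -0.19 without the 2 libraries farthest from the median. Across the 10 controls at 24 h r was 0.94 and Spearman's coefficient 0.96 (permutation p = 4e-05 and 0.00012, adjusted over 8 groups 0.00016 and 0.00048), and r was 0.93 without 2. Over the 465 pairs of all called falls in these controls, r ran from -0.83 to 0.94 with a median of 0.03, so this pair stood near the top of them. The high-dose levels covered a narrow range near few reads, and the difference between the groups in r was not tested. In 3 of the other 6 groups, the 6-day high-dose libraries at 6 h and at 48 h and the 5-day controls, r was 0.88 to 0.93 and Spearman's coefficient 0.87 to 0.95 (permutation p of r adjusted over 8 groups at most 0.00212), and r was 0.82 to 0.89 without 2. In the remaining 3 the adjusted p of r was 0.0536, and r rested in part on single libraries. It was 0.76 and 0.38 without 2 in 5-day high-dose larvae (Spearman's coefficient 0.28), 0.83 and 0.42 without 2 in controls at 6 h (Spearman's coefficient 0.56), and 0.76 and 0.67 without 2 in controls at 48 h (Spearman's coefficient 0.74). This relation was examined after the values of the transcripts had been seen.

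**Figure D5:**
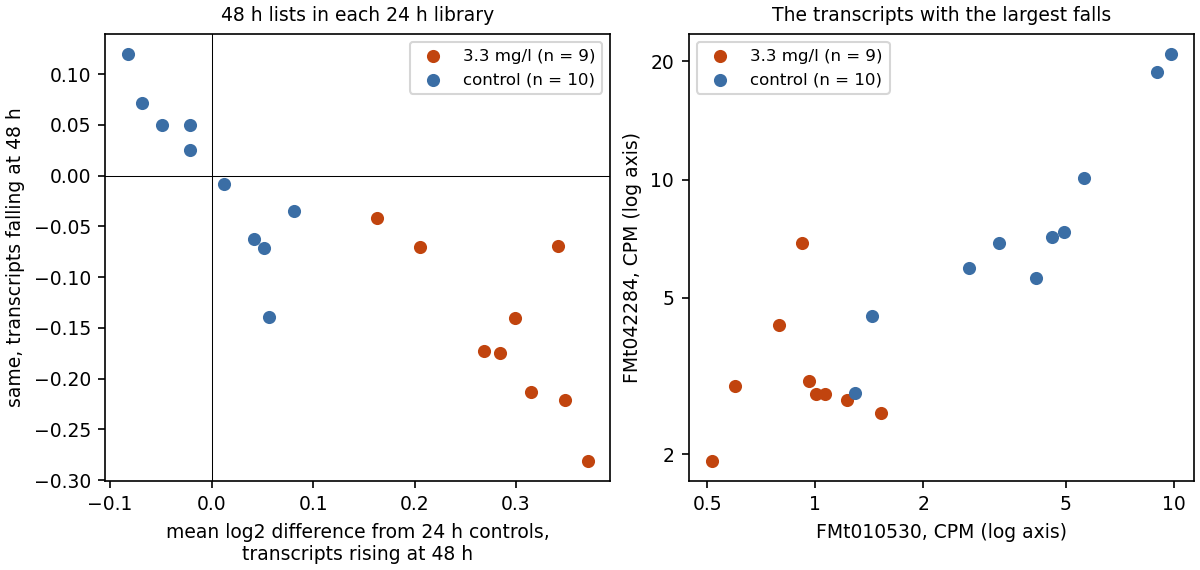
Left, score of each 24 h library over the transcripts that fell at 48 h against its score over those that rose at 48 h (mean log2 difference from the 24 h controls), with 9 high-dose and 10 control libraries. High-dose libraries lie at 0.16 to 0.37 and controls at -0.08 to 0.08 on the horizontal axis. Its list was made at 48 h and includes 124 transcripts that also passed at 24 h. Without these 124, a choice made on the 24 h values, the ranges are 0.09 to 0.29 and -0.09 to 0.10 and overlap. On the vertical axis the ranges overlap with the whole list. Right, CPM of FMt042284 against FMt010530 in the same libraries on log axes. There the controls form a rising line and the high-dose libraries a cluster at its lower end, with library 43 higher for FMt042284.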

How the data were processed

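Whole-number read counts per transcript were used as the authors deposited them, in a table of 34856 transcripts. Libraries were prepared from 250 ng RNA of frozen larvae with the Lexogen SENSE mRNA-Seq kit V2, per the labels' protocols. Reads were mapped to known mRNA transcripts of the species, per the design text of the series. The submitters' processing notes list edgeR 3.26.8, limma 3.40.6 and bcl2fastq 2.19.1 without saying what each did. Which aligner, build and counting rule were used is not given in the sources used here. Over all 266 libraries, the lowest total of any transcript was 166 counts, so very rare transcripts do not appear.

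Groups were taken from the labels of age, duration and dose. The members and lists were chosen with earlier results of these data known. The counts were fitted with edgeR 4.0.16 in R 4.3.3 (filterByExpr, TMM scaling, robust dispersions, quasi-likelihood F-test), with the 3 doses of a set in a single fit, and p-values were adjusted over all transcripts tested by the Benjamini-Hochberg method, with a threshold of 0.05. The difference between sets was tested as an interaction in a fit of both sets. No block was used in these fits, and a block by library number across sets was run as an alternative. Standard errors were taken as the absolute log2 fold change over the square root of F. Levels are TMM-scaled CPM, and log2 CPM has a prior count of 2. The procedure was tested on simulated data. The rule for the transcripts named takes the 2 largest rises and the 2 largest falls in log2 fold change among those that passed, had a mean log2 CPM of at least 1 and passed again in each of the 19 fits that leave out 1 high-dose or control library. The conditions were met by 101 rises and 11 falls.

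Alternatives were RLE size factors, no filter, DESeq2 1.42.0, limma-voom (limma 3.58.1), leaving out the low dose, summing adjacent library numbers, leaving out libraries under 9 M counts or each library in turn, the library total as a covariate, a replicate block across sets and a false discovery rate of 0.01. Permutation tests and plots used Python 3.11.15 with SciPy 1.17.1 and matplotlib 3.10.9. With 10 libraries, correlations used 100000 permutations.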

Additional observations from a re-analysis of the deposited data

Results flagged for a closer look

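In 46 sets of values from groups of 8 to 10 libraries, 9 had 1 library that stood apart from the others by Dixon's criterion at the 95% level, where chance gives about 1 in 20. Among high-dose libraries at 6 days and 24 h, number 37 had the fewest transcripts above 0, at 33271, in the shallowest library of its group. High-dose library 43 had 15.8% of its counts in the 10 most abundant transcripts and stood highest for FMt042284, at 6.90 CPM. Control library 7 of the same set had the lowest sum of TMM-scaled CPM over the 174 rises, at 0.495% of the scaled total.

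In the other sets, high-dose library 37 of the 6-day, 6 h set was lowest for FMt045902, at 56.5 CPM. Control library 1 of that set was highest for both falls, at 7.74 CPM for FMt010530 and 10.7 CPM for FMt042284. High-dose library 43 of the 5-day, 24 h set was likewise highest for both, at 5.17 CPM for FMt010530 and 8.30 CPM for FMt042284. A library number names different samples in different sets.

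The effect of the high dose differed between sets in edgeR's test of the difference for 16 transcripts at 24 h against 6 h, including FMt045902 at 2.16 on the log2 scale. It differed for 4 transcripts at 24 h against 48 h, including FMt010530 at -3.30, and for 2 transcripts at 6 days against 5 days.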

How the results depend on the processing

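No direction was reversed among the results and alternatives run, and none of the 205 transcripts that passed at 24 h had the opposite sign in any alternative. RLE size factors, no filter, limma-voom, the high-dose and control libraries alone and the library total as a covariate gave 145 to 202 transcripts. DESeq2 gave 362, summing adjacent numbers (5 sums per group) 102, and leaving out the libraries under 9 M counts 76. The last 2 use fewer samples. Of the 205, 57 (55 rises and 2 falls) passed in each of these 8 alternatives. Leaving out 1 library gave 144 to 216. FMt042284 alone among the named transcripts lost its call at 24 h, with the high-dose and control libraries alone (-1.45, adjusted p = 0.0603) and with sums of adjacent numbers (-1.47, adjusted p = 0.0654), and the cause was not tested. No library lay far from its group by its mean correlation, so leaving out such libraries gave no value.

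Library numbers recur across sets. With the library number as a replicate block, the effect differed for 7 transcripts at 24 h against 48 h, 4 at 24 h against 6 h and 8 at 6 days against 5 days, in place of 4, 16 and 2. Correlations between same-numbered libraries of different sets were mostly low. Of same-numbered pairs, 4 of 26, 6 of 28 and 8 of 28 had a correlation over 0.1, with medians of -0.0124, -0.016 and 0.0204. The highest were 0.329, 0.345 and 0.35. Only 1, 2 and 1 libraries correlated best with their own number. The share over 0.1 among other pairs was not taken, and whether equal numbers share a vessel or batch was not tested. The difference between 24 h and 6 h was found for 9 transcripts without libraries under 9 M counts, and that between 6 and 5 days for 4 with limma-voom. FMt010530 then passed against 6 h with limma-voom (-2.77, adjusted p = 0.0424) and against 5 days with the replicate block (-2.48, adjusted p = 0.0103). At a false discovery rate of 0.01, shared calls fell to 56 rises and 1 fall with 48 h, and 3 rises with the 5-day set, as the stricter threshold makes fewer calls. Low counts, such as the 8 to 17 reads of FMt010530 per high-dose library, limit precision.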
